A study of Mus musculus with 24 samples.

Results

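Autophagy machinery and receptors are described here as a set of 35 mouse genes, listed by name for what their proteins do in building the autophagosome or in bringing cargo to it, and not by any measured value. All 35 were found among the 55385 gene identifiers of the count files, and all 35 passed the filter on low counts in every comparison. In macroautophagy, a double membrane (the phagophore) is started by the ULK1 kinase complex and by the class III PI3K complex around BECN1 and VPS34, grows with lipid brought by ATG9 and ATG2, and is decorated with the ubiquitin-like proteins LC3 and GABARAP, which are attached to lipid by the ATG conjugation enzymes. Cargo receptors such as SQSTM1 (p62) bind LC3 or GABARAP, and the closed vesicle fuses with a lysosome. The TSC1-TSC2 complex restrains the kinase complex mTORC1, which when active phosphorylates ULK1 and ATG13 and holds autophagy down, and rapamycin inhibits mTORC1. Only RNA levels were measured, so neither protein, LC3 lipidation nor autophagic flux is known for these mice.

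The hippocampus of 24 adult male and female mice was profiled by stranded total RNA-seq, in 6 groups of 4. All mice carried floxed Tsc1 alleles on both chromosomes (Tsc1 fl/fl) and all received tamoxifen. The 4 Tsc1-Cre- littermates, without the Camk2a-CreERT2 transgene, kept the gene and were taken on day 8 after the start of tamoxifen. Tsc1-Cre+ mice, in which tamoxifen activates Cre in CAMK2A-expressing neurons, were taken on day 4, 6, 8 or 13, and a further Tsc1-Cre+ group received 10 mg/kg rapamycin daily from day 4 and was taken on day 13 (Tsc1-Cre+-Rap 4). The comparisons ask how the genes followed the time after Tsc1 loss, and what rapamycin did to them on day 13. Control mice came from day 8 only, so on the other days the day and the deletion changed together. The paper places seizure onset at day 8 and a full epileptic state at day 13. It also cites earlier work in which rapamycin from day 4, at a lower dose than the 10 mg/kg used here, prevented seizures. Tsc1 loss and seizures therefore cannot be told apart on day 8 and day 13. Between rapamycin and day 13 mice, the drug and the seizures cannot be told apart either. Tsc1, the targeted gene, was at a mean of 105 CPM (its counts relative to the scaled library size) in Tsc1-Cre- mice and at 78.4 CPM on day 4, and its means on day 13 were 63.6 CPM without and 67.3 CPM with rapamycin. Cells that do not express CAMK2A keep both Tsc1 alleles in this model. Marker genes of excitatory neurons were present in every library, at a summed 3185 to 4631 CPM. Total counts ran from 28208561 (rapamycin mouse A) to 126435936 (day 13 mouse B), and single members from 229 counts (Atg10) to 38949 counts (Sqstm1) in a library. In bulk tissue, fewer cells of a type and less RNA per cell cannot be told apart.

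Of the 35 genes, 18 (51.4%) differed among the 6 groups at an adjusted p under 0.05, against 41.9% of all 27110 genes tested (edgeR quasi-likelihood F test on all 24 mice). The LC3 and GABARAP family differed in all 5 members. Gabarap had the smallest adjusted p (adjusted p = 1.95e-07), followed by Becn1 (adjusted p = 6.78e-07), Map1lc3a (adjusted p = 3.82e-06) and Uvrag (adjusted p = 4.27e-06). The other members that differed were Atg13, Rb1cc1, Pik3c3, Atg2a, Atg3, Atg4b, Atg5, Atg10, Atg12, Map1lc3b, Gabarapl1, Gabarapl2, Sqstm1 and Calcoco1. No difference among groups was found for 17 members, among them the kinase gene Ulk1 (adjusted p = 0.298), the E1-like enzyme gene Atg7 (adjusted p = 0.897), the scaffold gene Wipi2 (adjusted p = 0.983) and the tether gene Tecpr1 (adjusted p = 0.863).

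Against Tsc1-Cre- mice, 11 members changed on each of day 8 and day 13, after 7 on day 6 and 3 on day 4. Each comparison rests on 4 mice against 4 (edgeR quasi-likelihood test, adjusted over all genes). On day 4, 3 members (8.57%) were higher and 0 lower, against 2.61% and 1.56% of all genes. By DESeq2, 3 were higher and 1 lower on day 4. By edgeR, 8 of the 35 had an unadjusted p under 0.05 on day 4, beside 4654 of all 25308 genes. On day 6, 4 members (11.4%) were higher and 3 (8.57%) lower, against 6.24% and 3.81% of all genes. On day 8, 7 (20%) were higher and 4 (11.4%) lower, against 8.41% and 4.87%. On day 13, 8 (22.9%) were higher and 3 (8.57%) lower, against 15.6% and 11.3%. These shares are for genes of every level, and no test was made of the members against other genes. The early counts depended on single mice and on the fit. On day 4, 0 members changed without Tsc1-Cre- mouse B or D or day 4 mouse A, B or C, with an offset for GC content, and when all 24 mice shared 1 estimate of spread. On day 6 that shared estimate also left 0, and 3 changed without Tsc1-Cre- mouse B or C or day 6 mouse B and 4 without day 6 mouse C. On day 8 the count was 5 without day 8 mouse A and 6 and 7 without Tsc1-Cre- mice C and B, and on day 13 it was 7 without Tsc1-Cre- mouse C. Calls over all genes also fell on day 4 and day 6 with the shared estimate, and on day 4 with the GC offset. For fits with 1 mouse left out they are not given here, so these losses are not read as a trait of the members.

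The changes were small. With the study's added requirement of an absolute log2 fold change over 0.5, 0 members passed on day 4, 6 or 8, against 0.68%, 1.32% and 3.99% of all genes, and 4 (11.4%) passed on day 13, against 16.5% of all genes. Those 4 were Gabarap and Uvrag, which rose, and Atg13 and Calcoco1, which fell. By edgeR, the unadjusted p was under 0.05 for 11 members on day 6 and 15 on day 8. Among all genes this held for 6076 of 25057 on day 6 and 7260 of 25085 on day 8. The absolute fold changes (log2) of the 35 genes had a median of 0.0694 on day 6 and 0.0881 on day 8. On day 13 it was 0.157, beside 0.315 for all genes tested. The median signed log2 fold change on day 13 was 0.0436 for the 35 genes and -0.0397 for all genes. Between day 13 and day 8 mice, 0 members changed by edgeR, as did 0% of all 24747 genes in either direction (0 higher and 0 lower). In that comparison 4 members had an unadjusted p under 0.05 by edgeR, beside 3479 of all 24747 genes, and DESeq2 called 1 member.

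**Figure D1:**
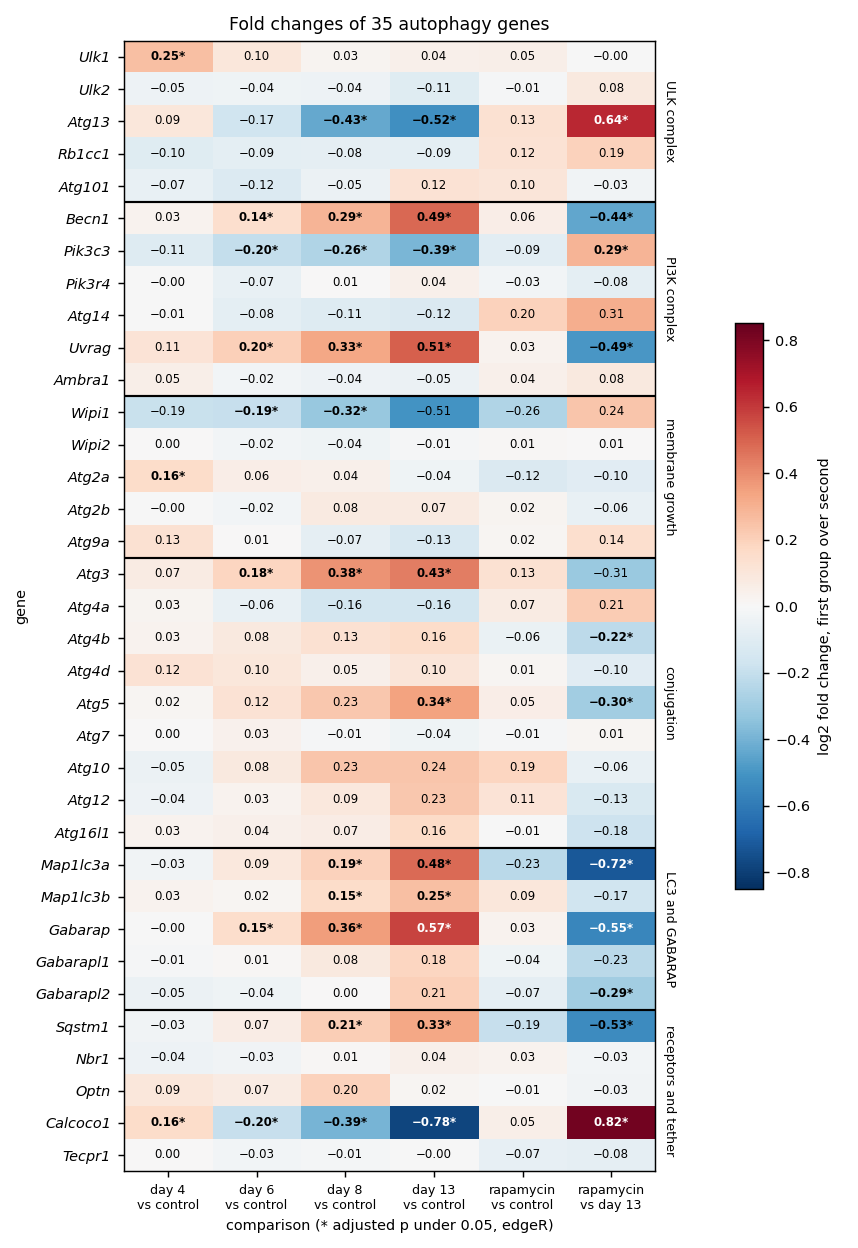
Log2 fold change of each of the 35 genes (rows, grouped by role) in 6 comparisons (columns), first group over second, 4 mice against 4. Colour and number give the fold change, and an asterisk marks an adjusted p under 0.05 (edgeR). Gabarap, Uvrag and Becn1 grow in value from day 4 to day 13 and are negative between rapamycin and day 13 mice, while Calcoco1 and Atg13 run the other way.

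Stretches before the gene starts of 5 members are shown. Atg3, Atg5 and Atg13 are those with a motif match that also changed against Tsc1-Cre- mice on some day, and Uvrag and Calcoco1 are examples without a match among the members past an absolute log2 fold change of 0.5 on day 13. Matches in Atg7 and Ulk2, which passed in no comparison with Tsc1-Cre- mice, and the promoter of Gabarap, without a match, are not shown. The 250 bases before each RefSeq start (GRCm38.p6) were searched on both strands, in 32851 promoters. Among these, 31 promoters of 29 of the 35 genes were counted as member promoters. The CLEAR core TCACGTGA, known as the site of TFEB-type regulators of lysosomal and autophagy genes, was in 1 of the 31 member promoters (3.23%, Atg3) and in 0.785% of all promoters. The E-box CACGTG, which lies inside that core, was in 3 (9.68%, Atg3, Atg5 and Atg7) and in 6.02% of all. The antioxidant response element, searched as TGACNNNGC, was in 2 (6.45%, Atg13 and Ulk2) and in 10.2% of all. The C/EBP-ATF composite element TGATGNAA and the FOXO site GTAAACA were in 0 of the 31, and in 3.45% and 3.17% of all promoters. Matches are set in capitals, all sequences run 5′ to 3′ on the strand of the gene, and a match describes letters only. For Atg3, chr16:45158709-45158784 on the plus strand holds an E-box and, nearer the start, the CLEAR core. For Atg5, chr10:44268279-44268338 on the plus strand holds an E-box. For Atg13, chr2:91710593-91710842 on the minus strand holds the antioxidant response element, reading on the other strand. For Uvrag, chr7:99141145-99141294, and for Calcoco1, chr15:102722179-102722328, both on the minus strand, no searched motif was found.
Atg3: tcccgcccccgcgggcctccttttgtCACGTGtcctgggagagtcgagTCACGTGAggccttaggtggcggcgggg
Atg5: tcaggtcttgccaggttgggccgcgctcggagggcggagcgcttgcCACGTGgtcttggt
Atg13: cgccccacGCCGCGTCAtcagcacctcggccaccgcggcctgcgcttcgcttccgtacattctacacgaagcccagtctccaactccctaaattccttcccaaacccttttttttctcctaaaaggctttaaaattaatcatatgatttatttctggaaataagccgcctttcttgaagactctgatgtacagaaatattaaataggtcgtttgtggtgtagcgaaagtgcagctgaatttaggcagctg
Uvrag: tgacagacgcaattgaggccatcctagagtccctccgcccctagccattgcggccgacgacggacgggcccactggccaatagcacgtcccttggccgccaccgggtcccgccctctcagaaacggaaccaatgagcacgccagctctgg
Calcoco1: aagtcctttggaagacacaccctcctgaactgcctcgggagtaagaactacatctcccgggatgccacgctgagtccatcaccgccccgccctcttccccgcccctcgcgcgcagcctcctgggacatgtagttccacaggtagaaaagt

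Among the 5 genes of the ULK complex, Atg13 fell and Ulk1 was higher on day 4 only among the days tested against control mice. Atg13 (chr2:91674618-91710576, minus strand, GRCm38) encodes the adaptor that ties ULK1 to RB1CC1 (FIP200). Its level in mice A to D was 40.2, 41.3, 42.2 and 36.9 CPM in Tsc1-Cre- mice, 30.1, 34.6, 23.5 and 31.9 CPM on day 8 and 26.0, 22.2, 30.6 and 34.3 CPM on day 13. All 4 mice of day 8 and all 4 of day 13 lay below the lowest Tsc1-Cre- mouse. This gave a log2 fold change of -0.43 ± 0.10 (SE, adjusted p = 0.0202) on day 8 and -0.52 ± 0.13 (SE, adjusted p = 0.0184) on day 13. The call was lost without Tsc1-Cre- mouse B or C on both days and without day 8 mouse A on day 8, with an adjusted p of at most 0.0623. On day 4 and day 6, Atg13 did not pass the test, and the 4 mice had 46.6, 41.9, 44.1 and 38.7 CPM on day 4 and 35.1, 33.3, 37.4 and 37.8 CPM on day 6.

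Ulk1 encodes the kinase that starts the phagophore. It was at 51.0, 49.4, 53.5 and 43.4 CPM in Tsc1-Cre- mice and 60.5, 60.2, 59.6 and 54.8 CPM on day 4, and all 4 day 4 mice lay above the highest Tsc1-Cre- mouse. The log2 fold change on day 4 was 0.25 ± 0.060 (SE, adjusted p = 0.0349). On day 6 the mice had 49.0, 52.7, 53.6 and 57.5 CPM and on day 8 54.1, 59.0, 41.3 and 48.3 CPM, overlapping the Tsc1-Cre- mice, and the log2 fold change on day 13 was 0.04 ± 0.13 (SE, adjusted p = 0.836). Its paralog Ulk2, at a mean of 137 CPM in Tsc1-Cre- mice, and the subunit genes Rb1cc1 and Atg101 passed in no comparison with Tsc1-Cre- mice.

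Of the 6 genes of the class III PI3K complex and its partners, 3 changed from day 6 to day 13, and not in 1 direction. Becn1 and Uvrag, which encode partners in the VPS34 complex, rose, and Pik3c3, which encodes its catalytic subunit VPS34, fell. Becn1 was at 61.9, 62.7, 59.9 and 64.5 CPM in Tsc1-Cre- mice, 67.3, 70.3, 70.6 and 68.1 CPM on day 6, 80.7, 75.9, 79.2 and 71.5 CPM on day 8 and 83.3, 98.8, 86.4 and 85.9 CPM on day 13. From day 6 on, every Tsc1-Cre+ mouse was above the highest Tsc1-Cre- mouse. The log2 fold change was 0.14 ± 0.035 (SE, adjusted p = 0.0204) on day 6, lost in 4 of 8 fits with 1 mouse left out, and 0.49 ± 0.065 (SE, adjusted p = 0.00122) on day 13. With the shared estimate of all 24 mice, the day 6 calls of Becn1, Uvrag and Pik3c3 were lost. The Becn1 exons share 43.9% of their bases with Cntd1 on the opposite strand, and whether the counting used strand is not given in the sources used here. Cntd1 was at a mean of 0.918 CPM in Tsc1-Cre- mice and 0.818 CPM on day 13. The part of this overlap in the Becn1 counts was not tested.

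Uvrag (chr7:98885021-99141141, minus strand) was at 52.0, 45.9, 45.3 and 49.1 CPM in Tsc1-Cre- mice, 50.8, 55.0, 55.2 and 47.0 CPM on day 4 and 56.6, 54.7, 60.1 and 51.4 CPM on day 6. It reached 64.9, 60.5, 61.8 and 57.2 CPM on day 8 and 76.6, 72.2, 62.7 and 66.5 CPM on day 13. The day 6 mice still overlapped the Tsc1-Cre- mice, and those of day 8 and day 13 did not. Its log2 fold change was 0.20 ± 0.054 (SE, adjusted p = 0.0298) on day 6 (lost in 6 of 8 such fits), 0.33 ± 0.060 (SE, adjusted p = 0.00552) on day 8 and 0.51 ± 0.079 (SE, adjusted p = 0.00236) on day 13. Pik3c3 was at 50.8, 50.8, 50.1 and 54.6 CPM in Tsc1-Cre- mice, 42.6, 44.1, 43.3 and 44.4 CPM on day 8 and 36.0, 36.7, 41.6 and 45.4 CPM on day 13. Every mouse of these days lay below the Tsc1-Cre- mice, with log2 fold changes of -0.26 ± 0.049 (SE, adjusted p = 0.00728) on day 8 and -0.39 ± 0.091 (SE, adjusted p = 0.0131) on day 13, and -0.20 ± 0.040 (SE, adjusted p = 0.00664) on day 6. The regulatory subunit gene Pik3r4, Atg14, whose protein steers the complex to the phagophore, and Ambra1 passed in no comparison.

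**Figure D2:**
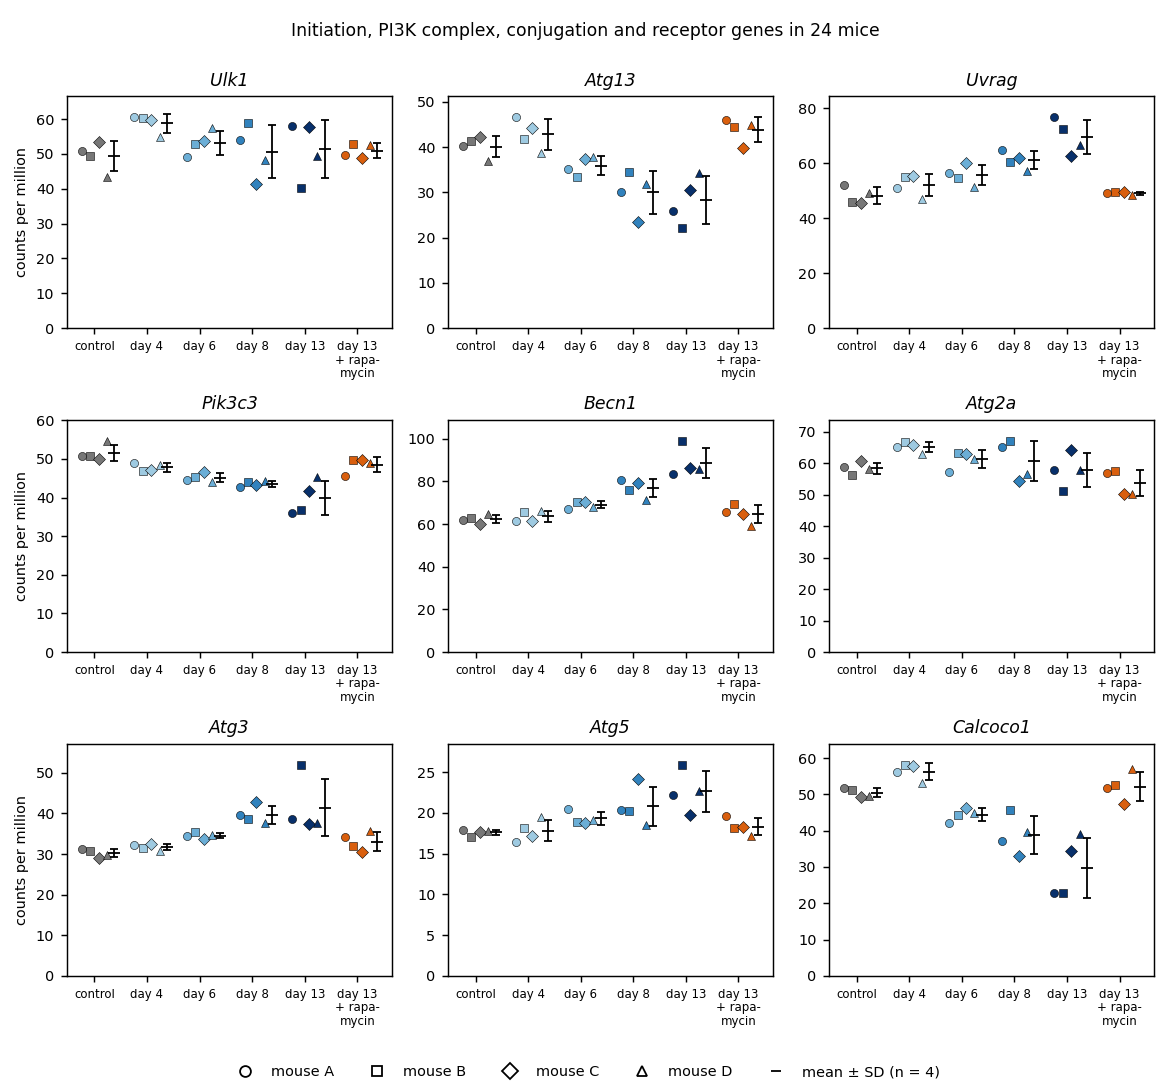
CPM (y axes, from 0) of 9 genes in each of the 24 mice (control for Tsc1-Cre-), with a marker per mouse, and the mean ± SD of the 4 mice of each group beside them. The 4 day 13 mice of Becn1 and Uvrag sit above all Tsc1-Cre- mice, and those of Atg13, Pik3c3 and Calcoco1 sit below. In these genes the rapamycin means are nearer the Tsc1-Cre- means than the day 13 means are. All 4 rapamycin mice of Pik3c3 (45.6 to 49.7 CPM) still lie below the Tsc1-Cre- mice (50.1 to 54.6 CPM).

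Among the 5 genes of membrane growth, Atg2a, which encodes a lipid transfer protein, was higher on day 4, and Wipi1, which encodes a PI3P-binding protein, was lower on day 6 and day 8. Atg2a was at 58.7, 56.2, 60.6 and 58.3 CPM in Tsc1-Cre- mice and 65.1, 66.8, 65.8 and 62.9 CPM on day 4, without overlap, with a log2 fold change of 0.16 ± 0.036 (SE, adjusted p = 0.0316). The day 4 changes of Ulk1, Atg2a and Calcoco1 were lost, leaving 0 of 3, when all 24 mice shared 1 estimate of spread, with an offset for GC content, and without Tsc1-Cre- mouse B or D or day 4 mouse A, B or C. On day 4, fold changes of all genes rose with their GC content (Spearman's rho 0.347 over 15849 genes, a description), and the exons of these 3 genes have a GC content of 58.0%, 59.96% and 57.7%. Other GC-rich members had day 4 log2 fold changes of -0.03 for Map1lc3a (63.1% GC) and 2.9e-05 for Tecpr1 (58.2% GC). Values were -0.07 for Atg101 (58.0% GC) and 0.13 for Atg9a (56.05% GC), and none of them passed the test. Beyond the offset, the part of GC content in the day 4 changes was not tested. For rapamycin mice the same rank correlation was negative, at -0.228 against Tsc1-Cre- mice and -0.143 against day 13 mice. On day 6, 8 and 13 against Tsc1-Cre- mice it was 0.108, 0.0803 and 0.0626. With the GC offset, 0 members changed between rapamycin and Tsc1-Cre- mice, and 14 between rapamycin and day 13 mice (11 without it). The part of GC content in single rapamycin fold changes was not tested. Wipi1 had a log2 fold change of -0.19 ± 0.056 (SE, adjusted p = 0.0441) on day 6 (lost in 7 of 8 fits with 1 mouse left out and in the fit of all 24) and -0.32 ± 0.072 (SE, adjusted p = 0.0148) on day 8. On day 13 it split: mice A and B were at 11.98 and 11.89 CPM and mice C and D at 21.7 and 23.1 CPM, against 23.1 to 24.9 CPM in Tsc1-Cre- mice, and the fold change did not pass (-0.51 ± 0.22 SE, adjusted p = 0.116). Wipi2, Atg2b and Atg9a passed in no comparison.

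Of the 9 conjugation genes, Atg3 rose from day 6 on and Atg5 on day 13, and none fell against Tsc1-Cre- mice. Atg3 (chr16:45158785-45188538, plus strand), whose promoter with the CLEAR core stands above, encodes the E2-like enzyme that hands LC3 to lipid. It was at 31.2, 30.9, 29.0 and 29.8 CPM in Tsc1-Cre- mice, 34.4, 35.4, 33.7 and 34.6 CPM on day 6, 39.7, 38.6, 42.8 and 37.8 CPM on day 8 and 38.7, 51.9, 37.4 and 37.6 CPM on day 13. All 12 of these Tsc1-Cre+ mice were above the highest Tsc1-Cre- mouse, and day 13 mouse B stood above the other 3. This gave a log2 fold change of 0.18 ± 0.046 (SE, adjusted p = 0.0218) on day 6 (lost in 4 of 8 fits with 1 mouse left out and in the fit of all 24), 0.38 ± 0.056 (SE, adjusted p = 0.00203) on day 8 and 0.43 ± 0.10 (SE, adjusted p = 0.014) on day 13. Atg5, whose protein is joined to ATG12 in the complex that places LC3 on the membrane, was at 17.9, 17.1, 17.7 and 17.7 CPM in Tsc1-Cre- mice and 22.2, 25.9, 19.8 and 22.7 CPM on day 13, with a log2 fold change of 0.34 ± 0.088 (SE, adjusted p = 0.0195). Without any 1 of the 4 Tsc1-Cre- mice, the adjusted p of Atg5 was over the threshold, at most 0.0658. The protease genes Atg4a, Atg4b and Atg4d, and Atg7, Atg10, Atg12 and Atg16l1, did not pass against Tsc1-Cre- mice on any day, with day 13 log2 fold changes of 0.16 for Atg4b, 0.24 for Atg10, 0.23 for Atg12 and 0.16 for Atg16l1.

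In the LC3 and GABARAP family, the ubiquitin-like proteins of the autophagosome membrane, 3 of 5 genes rose on both day 8 and day 13 and the values of the other 2 were also positive, beside 8.41% and 15.6% of all genes higher on these days. The family was not tested as a group. Per kilobase of exon, Gabarapl1 had the highest mean level in Tsc1-Cre- mice, at 128 CPM per kb, followed by Map1lc3a at 42.7, Gabarap at 30.4, Gabarapl2 at 22.8 and Map1lc3b at 11.2 CPM per kb. The length joins all annotated exons of a gene, 7517 bases for Map1lc3b, and the order depends on it. In CPM, Gabarapl1 (257) was followed by Map1lc3b (84.0), Gabarap (56.1), Gabarapl2 (53.0) and Map1lc3a (50.5). Gabarap (chr11:69991143-69994951, plus strand) showed the largest rise of all 35 genes on day 13, and Gabarapl1 and Gabarapl2 did not pass. Gabarap was at 55.0, 55.1, 56.4 and 57.9 CPM in Tsc1-Cre- mice, 56.7, 54.9, 51.9 and 59.95 CPM on day 4 and 61.1, 61.9, 63.7 and 64.4 CPM on day 6. It was at 71.9, 69.0, 80.8 and 68.4 CPM on day 8 and 76.9, 96.3, 78.9 and 86.7 CPM on day 13. From day 6 on no mouse overlapped the Tsc1-Cre- mice, and the mean went from 56.1 CPM in Tsc1-Cre- mice to 84.7 CPM on day 13. The log2 fold change was 0.15 ± 0.035 (SE, adjusted p = 0.0142) on day 6 (lost without Tsc1-Cre- mouse B and in the fit of all 24 mice), 0.36 ± 0.058 (SE, adjusted p = 0.00327) on day 8 and 0.57 ± 0.074 (SE, adjusted p = 0.00112) on day 13.

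Map1lc3a, which encodes LC3A, was at 51.5, 52.5, 49.9 and 47.9 CPM in Tsc1-Cre- mice, 58.7, 61.5, 59.9 and 53.3 CPM on day 8 and 73.8, 69.2, 73.0 and 69.8 CPM on day 13. The day 13 mice lay close together and above all mice of the other 5 groups. Its log2 fold change was 0.19 ± 0.056 (SE, adjusted p = 0.0425) on day 8, where 7 of 8 fits with 1 mouse left out lost the call, and 0.48 ± 0.062 (SE, adjusted p = 0.0011) on day 13, where none did. Map1lc3b, which encodes the LC3B protein used most as an autophagosome marker, was at 85.0, 84.1, 83.1 and 83.8 CPM in Tsc1-Cre- mice and 95.2, 96.6, 105 and 109.5 CPM on day 13. Its log2 fold change was 0.15 ± 0.045 (SE, adjusted p = 0.0488) on day 8, also lost in 7 of 8 such fits, and 0.25 ± 0.068 (SE, adjusted p = 0.0225) on day 13, lost without any 1 of the 4 Tsc1-Cre- mice (adjusted p at most 0.0676).

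Gabarapl1 was at 271, 247, 254 and 256 CPM in Tsc1-Cre- mice and 264, 290.2, 317 and 309.7 CPM on day 13, with day 13 mouse A inside the range of the Tsc1-Cre- mice. This gave a log2 fold change of 0.18 ± 0.075 (SE, adjusted p = 0.102). Gabarapl2 was at 54.7, 56.4, 49.6 and 51.4 CPM in Tsc1-Cre- mice and 55.4, 60.3, 65.0 and 67.2 CPM on day 13, where mice C and D were the highest, and its log2 fold change was 0.21 ± 0.082 (SE, adjusted p = 0.0902). How reads shared with related copies were counted is not given in the sources used here, so values of these paralogs are uncertain to that extent.

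**Figure D3:**
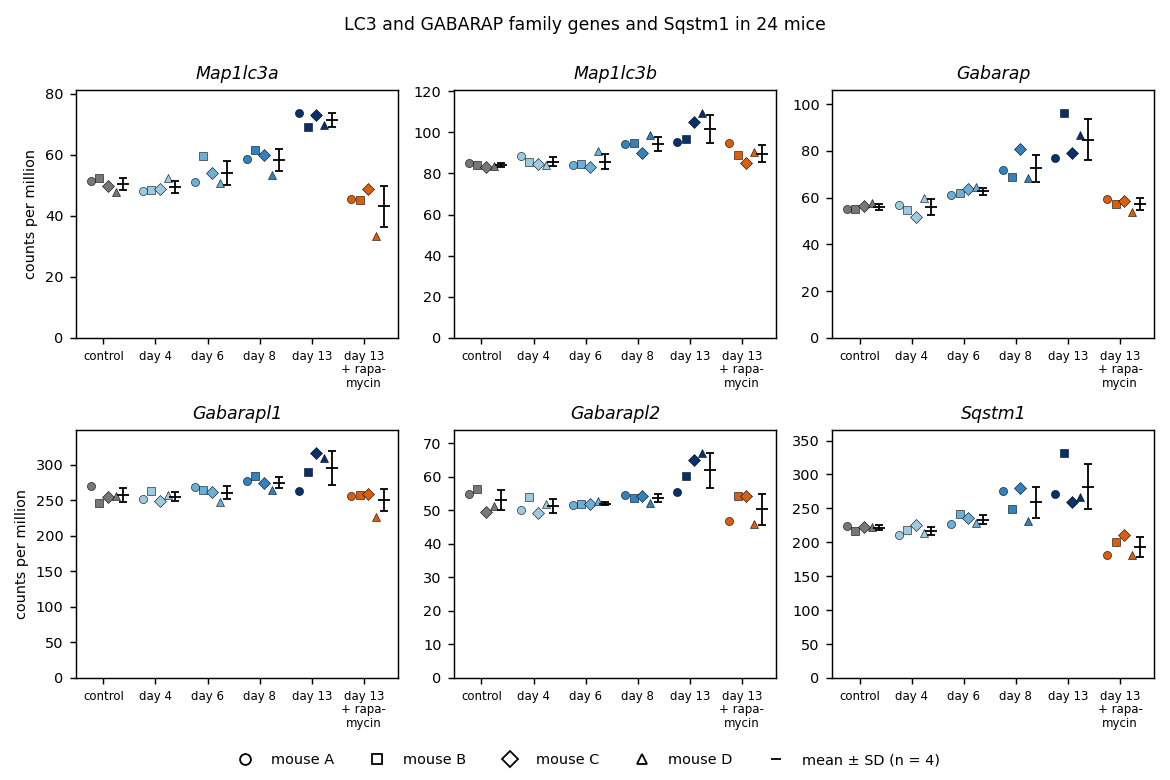
CPM (y axes, from 0) of the 5 LC3 and GABARAP family genes and of Sqstm1 in each of the 24 mice (control for Tsc1-Cre-), with a marker per mouse, and the mean ± SD of the 4 mice of each group beside them. Map1lc3a and Gabarap are highest in the 4 day 13 mice, at 69.2 to 73.8 CPM and 76.9 to 96.3 CPM, and the rapamycin mice are at 33.4 to 48.7 CPM and 53.7 to 59.4 CPM.

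Among the 5 receptor and tether genes, Sqstm1 rose and Calcoco1 fell, and Nbr1, Optn and Tecpr1 passed in no comparison. Sqstm1 (chr11:50199366-50210827, minus strand) encodes p62, which carries ubiquitinated cargo and is itself degraded by autophagy. It was at 224, 216, 223 and 223 CPM in Tsc1-Cre- mice, 275, 249, 280.3 and 231 CPM on day 8 and 270.5, 332, 259.7 and 266 CPM on day 13. All mice of both days were above the highest Tsc1-Cre- mouse, and day 13 mouse B was the highest. The log2 fold change was 0.21 ± 0.062 (SE, adjusted p = 0.0447) on day 8, lost in 6 of 8 fits with 1 mouse left out, and 0.33 ± 0.076 (SE, adjusted p = 0.0129) on day 13, lost in none. Its exons share 17.3% of their bases with Mrnip on the opposite strand, at a mean of 3.45 CPM in Tsc1-Cre- mice.

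Calcoco1 (chr15:102706777-102722178, minus strand), which encodes a receptor for the turnover of the endoplasmic reticulum and a transcriptional coactivator, had the largest change of the 35 genes on day 13 and the only one called higher at one time and lower at others. It was at 51.8, 51.3, 49.3 and 49.6 CPM in Tsc1-Cre- mice, 56.2, 58.0, 57.7 and 53.0 CPM on day 4 and 42.1, 44.3, 46.3 and 44.9 CPM on day 6. It was at 37.0, 45.6, 33.0 and 39.8 CPM on day 8 and 22.9, 22.7, 34.4 and 39.0 CPM on day 13. Every day 4 mouse lay above, and every mouse of the later days below, the 4 Tsc1-Cre- mice. Its log2 fold change was 0.16 ± 0.040 (SE, adjusted p = 0.0474) on day 4, -0.20 ± 0.041 (SE, adjusted p = 0.00818) on day 6, -0.39 ± 0.086 (SE, adjusted p = 0.0139) on day 8 and -0.78 ± 0.17 (SE, adjusted p = 0.011) on day 13. The mean was 50.5 CPM in Tsc1-Cre- mice and 29.8 CPM on day 13, with mice A and B, whose files share a number series, at 22.9 and 22.7 CPM and mice C and D, from other series, at 34.4 and 39.0 CPM. Without mice A and B the log2 fold change on day 13 was -0.46, and without C and D -1.15, a pair of settings chosen after the data were seen. All 7 day 6 changes, and none of the later ones of Calcoco1, were lost when all 24 mice shared 1 estimate of spread.

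In rapamycin mice, 0 of the 35 genes changed against Tsc1-Cre- mice in either direction (edgeR), against 1.26% higher and 2.31% lower of all 25006 genes. By edgeR, 7 members had an unadjusted p under 0.05, beside 4525 of all 25006 genes, and DESeq2 called 2 members lower. The 2 with the smallest unadjusted p were Sqstm1, with a log2 fold change of -0.19 ± 0.055 (SE, adjusted p = 0.0734), and Wipi1, with -0.26 ± 0.074 (SE, adjusted p = 0.0762). An adjusted p over the threshold does not show that the levels were equal. Sqstm1 was at 182, 199.9, 211 and 181 CPM in the rapamycin mice, all 4 below the lowest Tsc1-Cre- mouse. Pik3c3 was at 45.6, 49.7, 49.6 and 49.0 CPM, also all below the lowest Tsc1-Cre- mouse (-0.09 ± 0.049 SE, adjusted p = 0.385). Map1lc3a was at 45.4, 45.1, 48.7 and 33.4 CPM, with mouse D the lowest of all 24 mice and mouse C inside the range of the Tsc1-Cre- mice (-0.23 ± 0.092 SE, adjusted p = 0.205). Atg3 had a log2 fold change of 0.13 ± 0.059 (SE, adjusted p = 0.266).

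Against untreated day 13 mice, 3 members (8.57%) were higher and 8 (22.9%) lower with rapamycin, against 13.1% and 17.7% of all 24274 genes. Of these, 5 (14.3%) passed the absolute log2 fold change of 0.5 as well, against 21.1% of all genes: Atg13 and Calcoco1, which were higher, and Map1lc3a, Gabarap and Sqstm1, which were lower. The same day 13 mice enter the comparison with Tsc1-Cre- mice, so the 2 sets of fold changes are not independent, and they are given side by side without a count of agreement. Gabarap was at 59.4, 57.4, 58.6 and 53.7 CPM with rapamycin, and its log2 fold change against day 13 was -0.55 ± 0.082 (SE, adjusted p = 0.00143). Map1lc3a had -0.72 ± 0.11 (SE, adjusted p = 0.00178) and Sqstm1 -0.53 ± 0.089 (SE, adjusted p = 0.00235). In these 3 genes, and in Uvrag and Becn1, no rapamycin mouse overlapped a day 13 mouse, which held for 16 of the 35 members. The share of all genes without overlap is not given here.

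Uvrag was at 49.1, 49.5, 49.3 and 48.3 CPM with rapamycin, against 62.7 to 76.6 CPM in the day 13 mice, with a log2 fold change against day 13 of -0.49 ± 0.076 (SE, adjusted p = 0.00172). Becn1 was at 65.8, 69.5, 64.6 and 58.9 CPM, with -0.44 ± 0.078 (SE, adjusted p = 0.00305). Atg13 was at 46.0, 44.5, 39.8 and 45.0 CPM, all 4 above the highest day 13 mouse, with 0.64 ± 0.14 (SE, adjusted p = 0.00713). Calcoco1 was at 51.7, 52.5, 47.2 and 57.0 CPM, also without overlap, with 0.82 ± 0.18 (SE, adjusted p = 0.00804). These 4 genes, with Gabarap, Map1lc3a and Sqstm1, kept their call in every alternative fit of this comparison, although Becn1 and Uvrag stayed under a fold change of 0.5. Pik3c3 was higher (0.29 ± 0.096 SE, adjusted p = 0.0426), and Atg4b (-0.22 ± 0.067 SE, adjusted p = 0.0301), Atg5 (-0.30 ± 0.098 SE, adjusted p = 0.0428) and Gabarapl2 (-0.29 ± 0.095 SE, adjusted p = 0.0396) were lower, and all 4 of these calls were lost without rapamycin mouse B, C or D, which left 7 members. Map1lc3b and Atg3, higher on day 13 than in Tsc1-Cre- mice, did not pass between rapamycin and day 13. With rapamycin, Map1lc3b was at 94.5, 88.7, 84.9 and 90.3 CPM and Atg3 at 34.2, 32.0, 30.5 and 35.65 CPM.

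**Figure D4:**
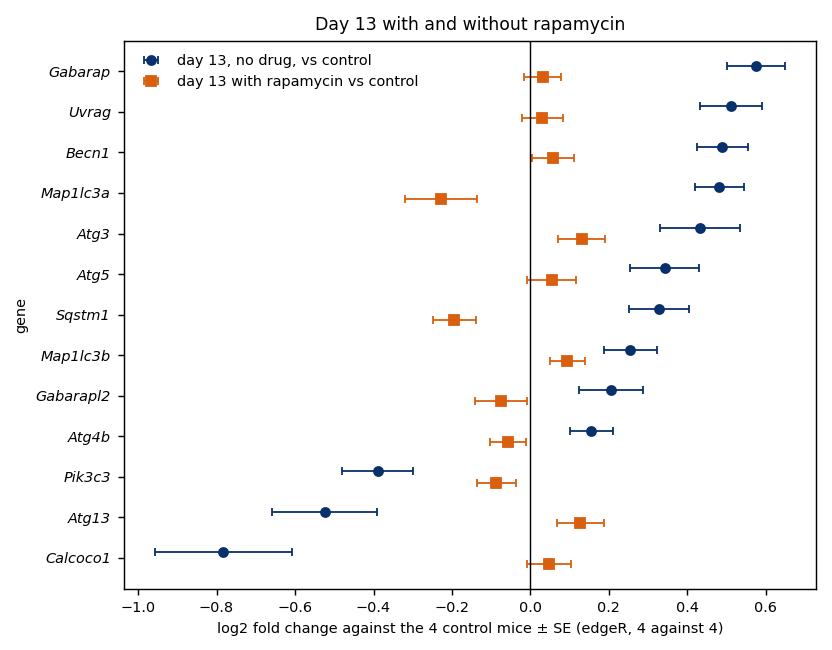
Log2 fold change against the 4 Tsc1-Cre- (control) mice (x axis) ± SE for the 13 genes (y axis) that changed on day 13 or between rapamycin and day 13 mice, for untreated day 13 mice (circles) and for rapamycin mice (squares). The circles run from -0.78 (Calcoco1) to 0.57 (Gabarap), and the squares from -0.23 (Map1lc3a) to 0.13 (Atg3).

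Markers of other cells moved with the groups. Between rapamycin and day 13 mice, 3 of 5 astrocyte markers and 3 of 5 microglia markers were lower, with summed levels of 1089 to 1157 CPM against 1572 to 2206 CPM for astrocytes and 124 to 142 CPM against 141 to 197 CPM for microglia, and none of these markers was at 0. Most of the astrocyte difference lay in Gfap, with means of 111 CPM with rapamycin and 729 CPM on day 13. Aqp4 (101 and 170 CPM) and Aldh1l1 (38.0 and 57.6 CPM) had lower means with rapamycin as well. Those of Slc1a3 (435 and 431 CPM) and Aldoc (437 and 386 CPM) were not lower. Between day 13 and Tsc1-Cre- mice, 1 of 5 astrocyte and 0 of 5 microglia markers were higher, 2 of 5 general neuron markers were higher, and all 4 blood markers were lower (summed 29.9 to 46.0 CPM against 54.7 to 70.8 CPM). Against Tsc1-Cre- mice, day 6 mice had 5 of 5 astrocyte, 3 of 5 microglia and 4 of 4 blood markers lower, with summed levels of 1129 to 1151 CPM against 1287 to 1360 CPM for astrocytes. On day 8, 2 of 5 microglia, 2 of 5 oligodendrocyte and 1 of 5 astrocyte markers were lower than in Tsc1-Cre- mice. Of 5 general neuron markers, 2 were higher. Gfap was at 681.5 and 900 CPM in day 8 mice A and C and at 127 and 158 CPM in B and D. Choroid plexus markers varied within groups, with Ttr at 1502 CPM in Tsc1-Cre- mouse B and 18.4, 39.9 and 28.8 CPM in A, C and D. In rapamycin mice, 4 of 5 microglia, 3 of 5 endothelial, 2 of 5 astrocyte and 2 of 5 oligodendrocyte markers were lower than in Tsc1-Cre- mice, with microglia markers at a summed 124 to 142 CPM against 169 to 204 CPM. Between rapamycin and day 13 mice, 2 of 5 general neuron and 2 of 5 endothelial markers were lower as well. The part of these markers in the fold changes of the autophagy genes was not tested. The number series in the file names was shared by Tsc1-Cre- and day 8 mice, and with it as a block 9 members changed on day 8. The other groups shared no series with the Tsc1-Cre- mice, so series and group cannot be told apart for them.

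Beyond the 35 genes, 28 other genes of the pathway (membrane, fusion, mitophagy and further receptor genes) were read with the same test. On day 8, 5 were higher and 3 lower, and on day 13, 13 were higher and 3 lower, with a median log2 fold change of 0.259 on day 13 (-0.0397 for all genes). These are 17.9% and 10.7% on day 8, against 8.41% and 4.87% of all genes, and 46.4% and 10.7% on day 13, against 15.6% and 11.3%. The list was not tested as a group. Those past 0.5 on day 13 were Vmp1, a scramblase gene of phagophore formation (0.73 ± 0.10 SE, adjusted p = 0.00168), Ykt6, a SNARE of autophagosome fusion (0.71 ± 0.10 SE, adjusted p = 0.00166), Tollip, a ubiquitin-binding receptor (0.66 ± 0.078 SE, adjusted p = 0.00084), and Trp53inp2, an LC3-binding cofactor (0.55 ± 0.11 SE, adjusted p = 0.00677), which rose. Wdr45, which encodes a PI3P-binding protein related to WIPI1, fell (-0.52 ± 0.14 SE, adjusted p = 0.0217). With rapamycin, 0 of the 28 changed against Tsc1-Cre- mice, against 1.26% of all genes higher and 2.31% lower. By edgeR, 7 of the 28 had an unadjusted p under 0.05 there, beside 4525 of all 25006 genes. Against day 13, 4 (14.3%) were higher and 11 (39.3%) lower with rapamycin, beside 13.1% and 17.7% of all genes. Past 0.5 in that comparison were Wdr45 (0.57 ± 0.14 SE, adjusted p = 0.0128), Vmp1 (-0.79 ± 0.11 SE, adjusted p = 0.00113), Ykt6 (-0.66 ± 0.10 SE, adjusted p = 0.00194), Tollip (-0.62 ± 0.085 SE, adjusted p = 0.000997), Fkbp8, a mitophagy receptor (-0.53 ± 0.11 SE, adjusted p = 0.00594), and Trp53inp2 (-0.73 ± 0.11 SE, adjusted p = 0.00175).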

How the data were processed

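Hippocampal total RNA of 24 mice (6 groups of 4, from the labels) was sequenced as stranded libraries. The deposited files hold raw read counts per gene for each mouse. To make them, the authors trimmed reads with cutadapt (1.16.5), aligned them to GRCm38/mm10 with STAR (2.7.2b) and counted reads per gene with featureCounts (1.6.4), with the strand setting not given in the sources used here. A gene's counts with an overlapping or near-identical neighbour may therefore be split or dropped. Of the 55385 identifiers, 55144 were named through GENCODE M21 (GRCm38).

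Groups were compared with edgeR 4.0.16 (R 4.3.3) after filterByExpr and TMM scaling, by the quasi-likelihood test on the 8 mice of a comparison and, for all 6 groups, by its F test on all 24, with Benjamini-Hochberg adjustment over all genes and a threshold of 0.05. A member of the list is said to have changed at an adjusted p under 0.05. CPM are counts relative to the TMM-scaled library size, set over all 24 mice. Total counts of 28208561 to 126435936 per mouse set the precision, and p-values measure the spread between single mice. The main fits were run on simulated counts with the same spread for every gene. So were DESeq2 and, for pairs of groups, the scaling, filter, replicate block and GC offset alternatives. The fit of all 24 mice, the number series block and the fits with 1 mouse left out were not simulated. Nor were the alternatives of the F test other than DESeq2. Alternatives were DESeq2 1.42.0, other scaling and filters, a GC offset, blocks, a fit of all 24 mice, and each mouse left out.

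Per-mouse values are given for members past an absolute log2 fold change of 0.5 in a comparison, the 3 largest changes in each, the 5 LC3 and GABARAP genes and Sqstm1, and for Becn1 and Atg5, which were added after their values were seen. The members and lists were chosen with earlier results of these data known. Promoter sequences are from RefSeq (GRCm38.p6), and 6 members had no promoter searched. Among these, Atg12 and Pik3c3 lie on chr18, which was skipped for members and kept in the rates of all promoters.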

Additional observations from a re-analysis of the deposited data

Results flagged for a closer look

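Of 78 groups of 4 mice examined (13 genes in 6 groups), 7 held a mouse apart from the other 3 by Dixon's criterion. Chance meets that criterion in about 1 group in 20. Becn1 and Atg5, whose per-mouse values were added later, were not examined in this way. On day 13, mouse B, the library with the most counts, stood above the others in Sqstm1 (332 CPM, next 270.5 CPM) and in Atg3 (51.9 CPM, next 38.7 CPM). On day 4, mouse D was above the others in Map1lc3a (52.4 CPM, next 48.6 CPM) and below them in Ulk1 (54.8 CPM, next 59.6 CPM). Pik3c3 was set apart in Tsc1-Cre- mouse D (54.6 CPM, next 50.8 CPM) and in rapamycin mouse A, the library with the fewest counts (45.6 CPM, next 49.0 CPM). Gabarapl1 was set apart in rapamycin mouse D (227 CPM, next 256 CPM). With 1 control group in the series, no contrast was repeated in a second tissue or line.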

How the results depend on the processing

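No member reversed its direction: of 657 pairs of a called member and an alternative fit, 512 kept the call and 145 lost it in the same direction. Counts of changed members that moved were, with all 24 mice in 1 fit, 0 on day 4, 0 on day 6, 18 on day 13, 18 for rapamycin against day 13 and 5 for day 13 against day 8. Over all genes, the calls in these comparisons, in this order, went from 1054 to 52, 2519 to 292, 6696 to 10557, 7474 to 11592 and 0 to 2911. With an added fold threshold they were 0 on day 4, 6 and 8, 4 on day 13 and 5 for rapamycin against day 13. A GC offset left 0 on day 4 (589 of all genes). DESeq2 gave 2 for rapamycin against Tsc1-Cre- mice (1729 of all genes, from 892) and 1 for day 13 against day 8 (318 of all genes), and no filter on low counts gave 1 for rapamycin against Tsc1-Cre- mice and 7 for rapamycin against day 13. Without day 13 mice C and D together (chosen after seeing the data), 18 changed on day 13 (11317 of all genes) and 2 between day 13 and day 8 (3440 of all genes). The cause of these shifts was not tested. With 1 mouse left out, the count ran from 0 to 3 on day 4, 3 to 7 on day 6 (3 without Tsc1-Cre- mouse B or C or day 6 mouse B, 4 without day 6 mouse C), 5 to 11 on day 8 (5 without day 8 mouse A, 6 and 7 without Tsc1-Cre- mice C and B), 7 to 15 on day 13 (7 without Tsc1-Cre- mouse C), 0 to 1 for rapamycin against Tsc1-Cre- mice (1 without rapamycin mouse C), 7 to 11 for rapamycin against day 13 and 0 for day 13 against day 8. The members that differ among the 6 groups numbered 15 to 22 in all alternatives. Calls over all genes are not given here for the fits with 1 mouse left out, with blocks or without the filter on low counts.

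The letters A to D do not pair the mice: no comparison had a correlation of deviations over 0.1 in every same-letter pair, and not every mouse correlated best with its own letter in any of them. With the letter as a replicate block, 4 members changed on day 6 and 7 between rapamycin and day 13, and 2, 8, 9, 0 and 0 on day 4, 8, 13, rapamycin against Tsc1-Cre- mice and day 13 against day 8, with 17 differing among the 6 groups.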
